A study of Bos taurus with 6 samples.

Results

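The G1 cell cycle genes examined were the D cyclins CCND1, CCND2 and CCND3, the E cyclins CCNE1 and CCNE2, the kinases CDK4 and CDK6, and the CDKN1 inhibitors CDKN1A, CDKN1B and CDKN1C. They were taken by gene family and matched by symbol and Entrez identifier, not by their values. Earlier results of these data were known when the genes were chosen. These genes made up 10 of the 19163 genes in the count table. RNA-seq had been carried out on F7, a single line of bovine (Holstein Friesian) embryonic stem cells derived from embryos fertilised in vitro, grown on either of 2 feeder layers of mouse embryonic fibroblasts (MEFs). MC-F7 cells (1M-F7 in the labels) grew on MEFs kept alive but stopped from dividing by mitomycin C, MT-F7 cells grew on MEFs killed and fixed in methanol, and each group had 3 libraries at passage 15. Both groups were dissociated and left briefly on gelatin so that attached cells could be removed, and the floating cells were sequenced. By the study's methods the medium was changed daily for MC-F7 and every other day for MT-F7, so the feeder and the feeding schedule cannot be told apart. Nothing in the labels says that the replicates were separate cultures, so the p values measure the spread between these libraries, which may be technical.

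As background, a cell in G1 commits to DNA replication when D cyclins bound to CDK4 or CDK6, followed by E cyclins bound to CDK2, phosphorylate the retinoblastoma protein RB1 and release the E2F transcription factors that switch on S phase genes. CDKN1A (p21), CDKN1B (p27) and CDKN1C (p57) bind cyclin-CDK complexes and restrain this step, and CDKN1A is also a classical target of p53. Pluripotent stem cells are known for a short G1 phase, with high cyclin E-CDK2 activity and low levels of CDK inhibitors.

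The libraries held 21958386 to 24933430 counts, and the mitochondrial share of counts was highest in replicate 3 of both groups (28.3% in MC-F7 and 27.9% in MT-F7). At this depth 3 counts, taken as the least amount detected, corresponded to 0.120 to 0.137 CPM, the counts scaled to the normalised size of each library. Of 10 pluripotency markers 7 were in the count table and none was at 0 in either group, their summed level was 1360 to 2031 CPM in MC-F7 and 753 to 879.7 CPM in MT-F7, and 5 of the 7, POU5F1 and NANOG among them, fell in MT-F7 (71.4%, where 11.3% of all tested genes fell). The summed level of 20 fibroblast markers was 394 to 472 CPM in MC-F7 and 618 to 690.4 CPM in MT-F7. The feeders were mouse cells and the reads were aligned to the bovine genome, so this sum is not a measure of feeder cells. The paper reports a higher alignment rate for MT-F7 than for MC-F7 and proposes that fixed feeders reduced feeder contamination. Whether mouse reads entered the counts was not tested. Of the 19 fibroblast markers tested, 7 rose and 1, TWIST2, fell (42.1% together, where 23.2% of all tested genes passed), and FAP was at 0 in all MT-F7 libraries. The part of cell make-up in the results that follow was not tested, and in bulk RNA fewer cells of a type and less RNA per cell cannot be told apart.

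All 3 CDKN1 inhibitors, CCNE2 and CDK4 rose in MT-F7 cells compared to MC-F7 cells, and CDK6 fell. CDKN1A and CDKN1C rose 2.17-fold and 2.16-fold, CDKN1B 1.81-fold, CCNE2 1.70-fold and CDK4 1.45-fold, whereas CDK6 was 2.60-fold lower. The D cyclins and CCNE1 did not pass the test. All 10 genes passed the filter on low counts, and 6 of them had an adjusted p under 0.05 in edgeR's quasi-likelihood test with Benjamini-Hochberg adjustment over all 13001 tested genes, 5 higher and 1 lower. Over all tested genes 23.2% passed, 11.9% higher and 11.3% lower in MT-F7. The same 6 genes were those whose MC-F7 and MT-F7 libraries did not overlap, against 40.0% of all tested genes (19.9% with MT-F7 higher and 20.1% with MT-F7 lower). The median log2 fold change was 0.50 over the 10 genes and -0.0026 over all tested genes. Without MT-F7 replicate 2 the number that passed was 3, since CCNE2, CDK4 and CDKN1B no longer did. In that fit 2235 genes passed in all, against 3016 with all libraries.

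**Figure D1:**
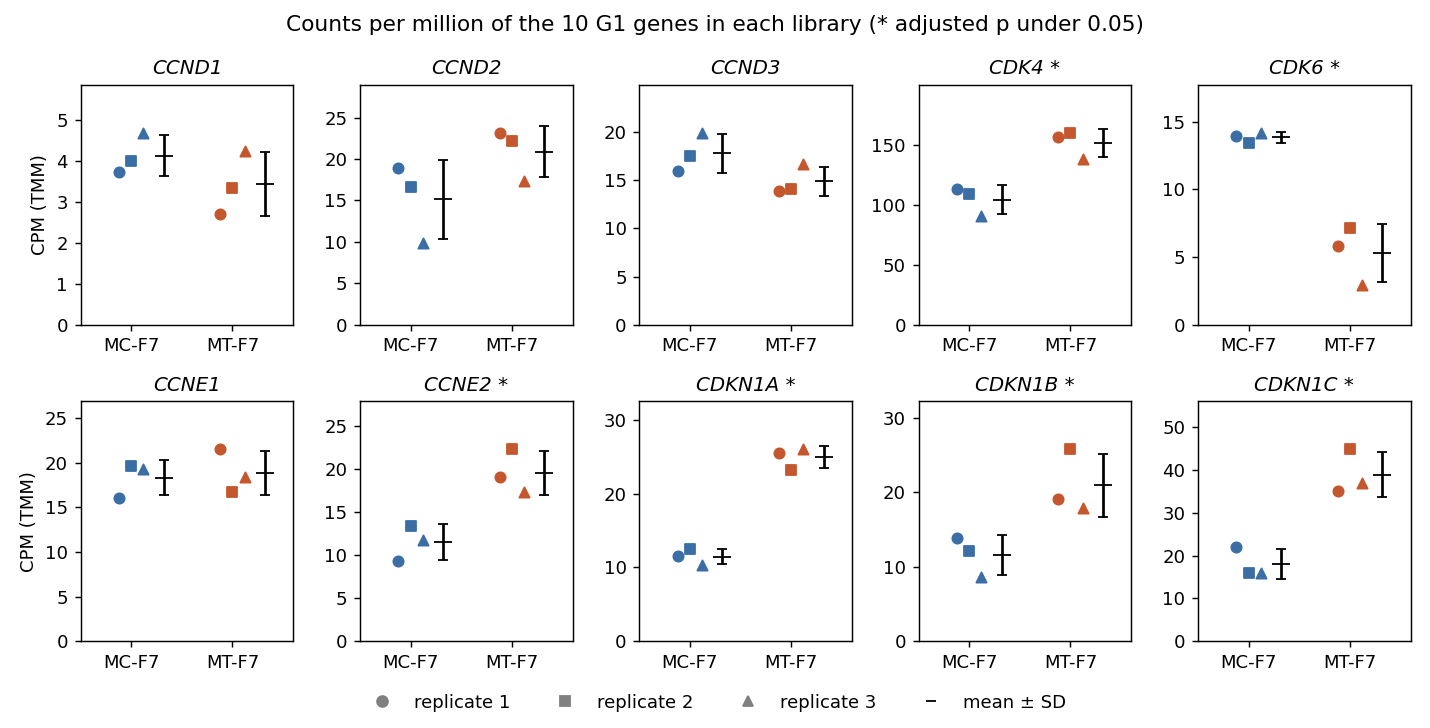
Normalised level of each of the 10 genes in each library, in CPM, with MC-F7 and MT-F7 side by side, circles, squares and triangles for replicates 1, 2 and 3, black bars for the mean ± SD, and a star where the adjusted p was under 0.05. The MT-F7 points of CDKN1A, CDKN1B, CDKN1C, CCNE2 and CDK4 all lie above the MC-F7 points, those of CDK6 all lie below, and the groups overlap for CCND1, CCND2, CCND3 and CCNE1.

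CDKN1A (Entrez 513497), the p21 inhibitor, had 11.5, 12.5 and 10.4 CPM in MC-F7 replicates 1, 2 and 3, and 25.5, 23.2 and 25.99 CPM in MT-F7 replicates 1, 2 and 3. The lowest MT-F7 library was well above the highest MC-F7 library, and the spread within each group was small. The means were 11.5 ± 1.05 and 24.9 ± 1.49 CPM (SD, n = 3), a log2 fold change of 1.12 with a standard error of 0.162 (adjusted p = 3.2e-04 by edgeR's quasi-likelihood test with Benjamini-Hochberg adjustment). CDKN1A passed the test whichever library was left out.

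CDKN1C (Entrez 510972), the p57 inhibitor, which is expressed from the maternal copy in mammals in which its imprinting has been studied, had 22.03, 15.9 and 16.0 CPM in the MC-F7 libraries and 35.0, 44.8 and 37.0 CPM in the MT-F7 libraries. The groups did not overlap, and MC-F7 replicate 1 and MT-F7 replicate 2 were the highest of their groups. The means were 18.0 ± 3.49 and 38.9 ± 5.18 CPM (SD, n = 3), with a log2 fold change of 1.11 ± 0.181 (SE, edgeR adjusted p = 7.8e-04). It passed in all 6 fits that left out 1 library.

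CDKN1B (Entrez 512613), the p27 inhibitor, whose protein is marked for destruction by the SKP2 ubiquitin ligase as cells enter S phase, had 13.9, 12.1 and 8.65 CPM in MC-F7 and 19.2, 25.8 and 17.8 CPM in MT-F7. Again the groups did not overlap, but the spread was wider than for CDKN1A, with MC-F7 replicate 3 low and MT-F7 replicate 2 high. The log2 fold change was 0.85 ± 0.213 (SE), from 11.6 ± 2.68 to 20.9 ± 4.25 CPM (SD, n = 3, edgeR adjusted p = 0.0112). Without MT-F7 replicate 2 the log2 fold change was 0.68 and the edgeR adjusted p 0.0579. With limma on the deposited per-length values, which keep library depth, the adjusted p was 0.0603 or 0.0511 with a pseudocount of 1 or 0.1.

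Among the kinases, CDK4 (Entrez 510618), the main partner of the D cyclins in many cell types, had 113, 109 and 90.6 CPM in MC-F7 and 156.5, 159.9 and 138 CPM in MT-F7. Replicate 3 was the lowest of each group, and all MT-F7 libraries were above all MC-F7 libraries. The means were 104 ± 12.03 and 151.5 ± 11.7 CPM (SD, n = 3), a log2 fold change of 0.54 ± 0.151 (SE, edgeR adjusted p = 0.0207). The direction held whichever library was left out, with log2 fold changes from 0.44 to 0.60, but the adjusted p was 0.0755 without MC-F7 replicate 2, 0.0584 without MC-F7 replicate 3, 0.0841 without MT-F7 replicate 1 and 0.0811 without MT-F7 replicate 2.

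CDK6 (Entrez 511754), which pairs with the same cyclins, moved the other way. It had 13.9, 13.4 and 14.2 CPM in MC-F7, nearly the same in each library, and 5.82, 7.15 and 2.93 CPM in MT-F7. No MT-F7 library reached the MC-F7 range, and replicate 3 was the lowest. The means were 13.8 ± 0.400 and 5.30 ± 2.16 CPM (SD, n = 3), a log2 fold change of -1.38 ± 0.268 (SE, edgeR adjusted p = 0.00267). CDK6 held its call in all 6 fits without 1 library. In the RefSeq annotation 3 long non-coding RNA genes overlap CDK6, and they are not in the count table used here, so reads from them may be among the CDK6 counts where strand was not used.

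Of the E cyclins, which activate CDK2 at the border of G1 and S phase, CCNE2 rose and CCNE1 did not pass the test. CCNE2 (Entrez 538436) had 9.38, 13.4 and 11.8 CPM in MC-F7 and 19.2, 22.3 and 17.3 CPM in MT-F7. The groups did not overlap, and replicate 2 was the highest in each. The means were 11.6 ± 2.04 and 19.6 ± 2.53 CPM (SD, n = 3), a log2 fold change of 0.76 ± 0.187 (SE, edgeR adjusted p = 0.0103). Without MT-F7 replicate 2 the log2 fold change was 0.66 and the adjusted p 0.0508. CCNE2 overlaps INTS8, a subunit of the Integrator complex, in the RefSeq annotation, and the counting is not stated to use strand. INTS8 had 150.4 ± 19.2 CPM in MC-F7 and 147.5 ± 18.3 CPM in MT-F7 (SD, n = 3, edgeR adjusted p = 0.921).

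CCNE1 (Entrez 533526) had 16.1, 19.7 and 19.3 CPM in MC-F7 and 21.5, 16.7 and 18.4 CPM in MT-F7. The libraries of the groups were interleaved, with means of 18.3 ± 1.99 and 18.9 ± 2.43 CPM (SD, n = 3). Its log2 fold change was 0.04, with a 95% interval from -0.33 to 0.41 (edgeR adjusted p = 0.888), and the sign turned without MC-F7 replicate 1 (-0.045) or MT-F7 replicate 1 (-0.072), and reached 0.12 without MT-F7 replicate 2.

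The D cyclins are the sensors of mitogen signals in G1, and none of the 3 passed the test. CCND2 (Entrez 615414) had 18.9, 16.6 and 9.82 CPM in MC-F7 and 23.2, 22.1 and 17.4 CPM in MT-F7. The groups overlapped because MT-F7 replicate 3 lay below MC-F7 replicate 1, and replicate 3 was the lowest in both groups. The log2 fold change was 0.46, with a 95% interval from -0.03 to 0.96 (edgeR adjusted p = 0.166). In the fit with the replicate number as a block the adjusted p was 0.0127 and 36.0% of all tested genes passed, but the numbers were not shown to pair the libraries.

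CCND3 (Entrez 540547) had 15.9, 17.5 and 19.9 CPM in MC-F7 and 13.9, 14.1 and 16.6 CPM in MT-F7. MT-F7 replicate 3 reached into the MC-F7 range, and the log2 fold change was -0.26 with a 95% interval from -0.62 to 0.11 (edgeR adjusted p = 0.306). CCND1 (Entrez 524530) had the fewest counts of the 10 genes, with 3.72, 3.98 and 4.68 CPM in MC-F7 and 2.71, 3.32 and 4.25 CPM in MT-F7. These levels rested on 68 to 100 counts per library. The groups overlapped, and the log2 fold change of -0.27 had a 95% interval from -0.83 to 0.29 (edgeR adjusted p = 0.494). CCND1 overlaps LTO1 in the RefSeq annotation, for which the adjusted p was 0.218.

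**Figure D2:**
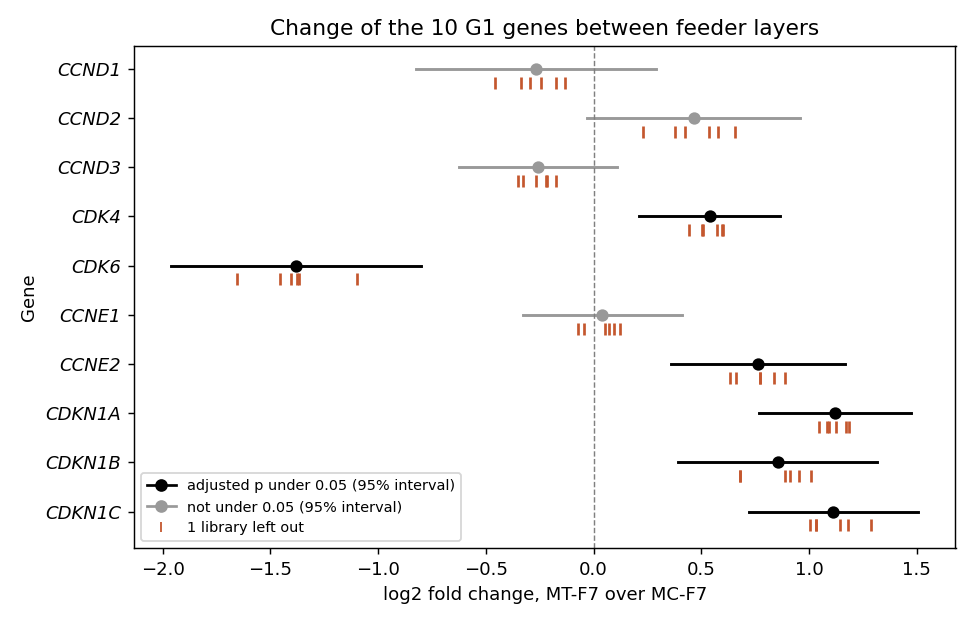
Log2 fold change of each of the 10 genes, MT-F7 over MC-F7, with its 95% interval from edgeR's quasi-likelihood fit, black where the adjusted p was under 0.05 and grey otherwise, the line at 0 marking no change and the ticks under each interval giving the 6 fits that left out 1 library. The 5 genes that rose lie between 0.54 and 1.12, CDK6 lies at -1.38, and the intervals of CCND1, CCND2, CCND3 and CCNE1 include 0.

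Levels were compared between genes on the deposited TPM scale, in which counts are divided by gene length. The deposited values summed to between 154763 (MC-F7 replicate 3) and 164394 (MT-F7 replicate 2) per library, not to the fixed total of standard TPM. All TPM given here are on this deposited scale and cannot be read as standard TPM. Since these values keep the depth of the library, the order was read within each group and not across the groups. CDK4 was the highest of the 10 genes in both groups, at 10.98 ± 1.76 TPM in MC-F7 and 17.4 ± 2.13 TPM in MT-F7, and CCND1 the lowest, at 0.605 ± 0.0540 and 0.549 ± 0.104 TPM (SD, n = 3). In MC-F7 the order below CDK4 was CCNE1, CDKN1C, CCND3, CCND2, CDK6, CDKN1A, CDKN1B, CCNE2 and CCND1. Of the 9 pairs of neighbours in that order, 3 did not overlap in their libraries, namely CDK4 above CCNE1, CDK6 above CDKN1A and CCNE2 above CCND1. The 5 genes from CCNE1 to CDK6 had means of 1.56 to 2.06 TPM, and each overlapped the next in that stretch.

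In MT-F7 the order below CDK4 was CDKN1C, CCND2, CDKN1A, CCNE1, CDKN1B, CCNE2, CCND3, CDK6 and CCND1. CDKN1C was second, at 4.75 ± 0.805 TPM (SD, n = 3), and its libraries lay above those of CCND2, the next gene. CDKN1A was in place 7 in MC-F7 and place 4 in MT-F7, while CDK6 was in place 6 and place 9. The 6 genes from CCND2 to CCND3 had means of 1.69 to 2.67 TPM, and each overlapped the next in that stretch. CDK6 lay below CCND3 without overlap, and CDK6 and CCND1 overlapped.

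**Figure D3:**
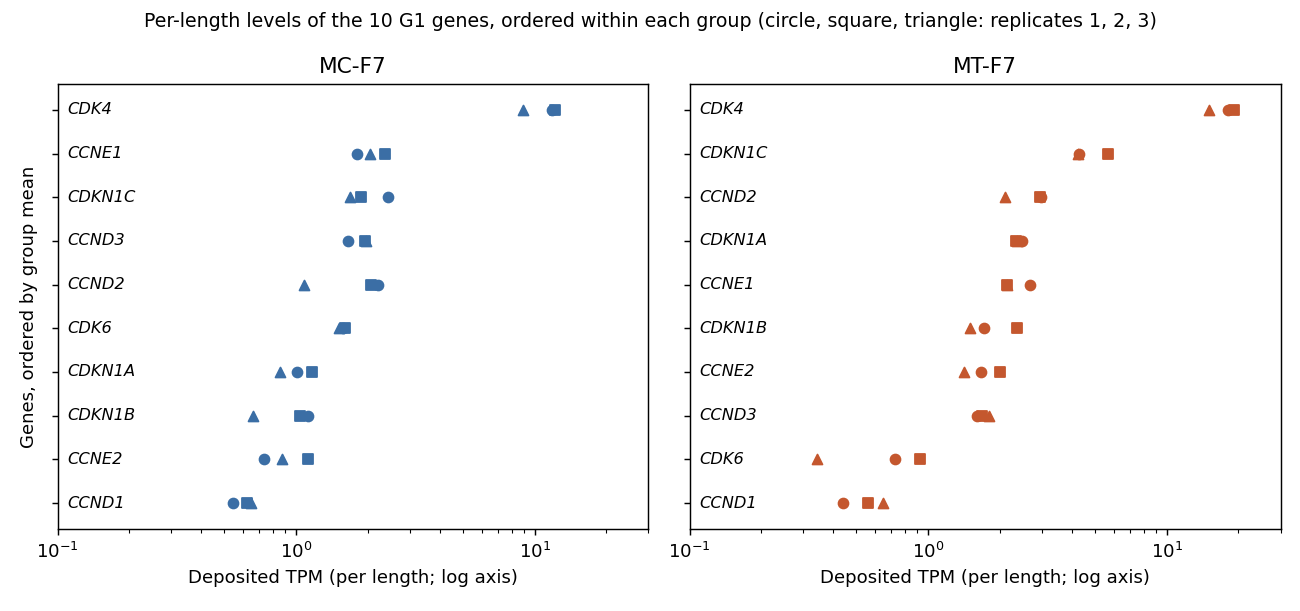
Deposited TPM of each gene in each library on a log axis, MC-F7 in the left panel and MT-F7 in the right, genes ordered by their group mean and symbols for the replicates. CDK4 is at the top and CCND1 at the bottom of both orders, and CDKN1C is in place 3 in MC-F7 and place 2 in MT-F7.

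The make-up of each family was compared as the share of a gene in the summed TPM of its family within a library, which does not depend on library size. With 3 against 3 libraries the exact two-sided permutation test cannot give a p under 0.1, and 8 shares were compared. CDK6 made up 11.7%, 11.7% and 14.4% of CDK4 and CDK6 together in the MC-F7 libraries and 3.85%, 4.595% and 2.23% in the MT-F7 libraries. The groups did not overlap, and the mean share was 12.6% ± 1.57 in MC-F7 against 3.56% ± 1.21 in MT-F7 (SD, n = 3), a difference of -9.04 percentage points (exact permutation p = 0.1, adjusted p = 0.32). CCNE2 made up 29.1%, 32.4% and 30.1% of the E cyclins in MC-F7, against 38.4%, 48.3% and 39.8% in MT-F7. This share also did not overlap, and it was 11.7 percentage points higher in MT-F7, at 42.2% ± 5.37 against 30.5% ± 1.69 (SD, n = 3, exact permutation p = 0.1, adjusted p = 0.32).

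Within the D cyclins the shares of the groups overlapped. CCND2 held 41.3% ± 10.7 in MC-F7 and 54.1% ± 6.998 in MT-F7, and CCND3 held 44.3% ± 7.999 and 34.6% ± 4.31 (SD, n = 3, exact permutation p = 0.2 and adjusted p = 0.32 for each). CCND1 held 14.5% ± 2.75 and 11.3% ± 2.77 (SD, n = 3, exact permutation p = 0.3, adjusted p = 0.4). For the CDKN1 inhibitors the mean shares differed by 1.96, 1.10 and -3.06 percentage points for CDKN1C, CDKN1A and CDKN1B, while the summed TPM of the family was 3.95 ± 0.694 in MC-F7 libraries against 8.99 ± 1.21 in those of MT-F7 (SD, n = 3). Unlike the shares, these sums keep library depth, so part of the gap between the groups may come from depth. CDKN1C held 50.7% ± 4.03 in MC-F7 and 52.6% ± 2.04 in MT-F7, CDKN1A 25.8% ± 3.37 and 26.9% ± 3.91, and CDKN1B 23.5% ± 2.58 and 20.5% ± 2.26 (SD, n = 3, exact permutation p = 0.7, 0.5 and 0.2, adjusted p = 0.7, 0.57 and 0.32). The sign of the difference turned for CDKN1A without MC-F7 replicate 1, MT-F7 replicate 1 or MT-F7 replicate 3, and for CDKN1C without MC-F7 replicate 2.

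**Figure D4:**
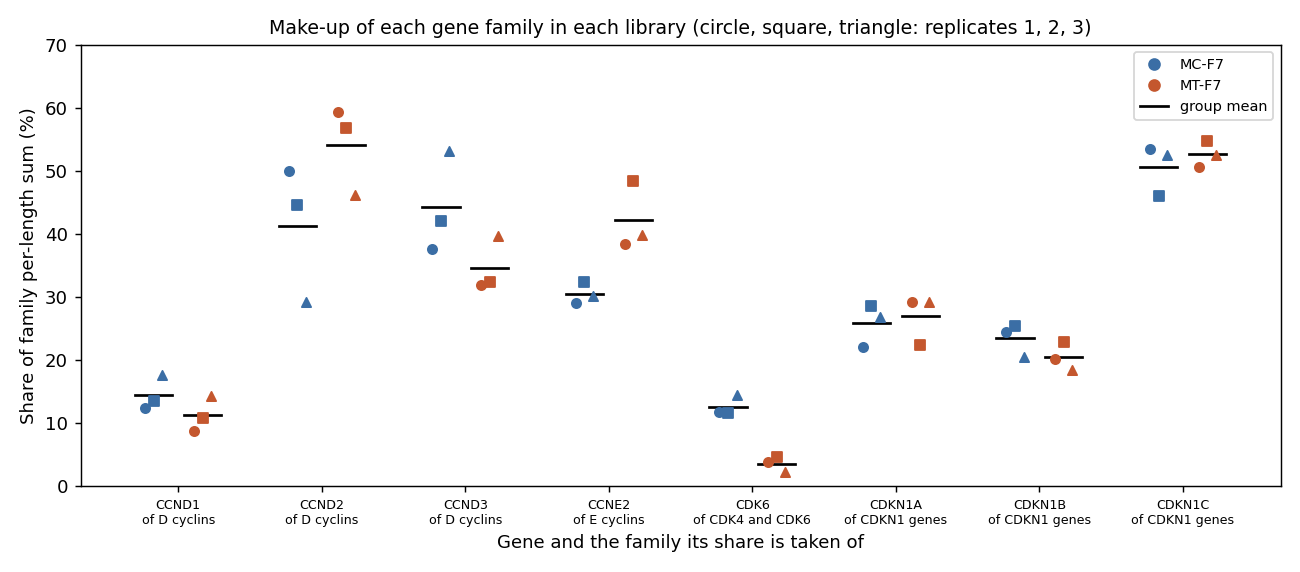
Share of each gene in the summed TPM of its family, in percent, for each library, with bars at the group means. The MT-F7 points lie below the MC-F7 points for CDK6 and above them for CCNE2, and the groups overlap for the D cyclins and the CDKN1 inhibitors.

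The summed TPM of the CDKN1 inhibitors over that of the D and E cyclins was 0.659, 0.505 and 0.484 in the MC-F7 libraries and 0.907, 1.11 and 1.00 in the MT-F7 libraries. All MT-F7 libraries lay above all MC-F7 libraries. The means were 0.549 ± 0.0955 and 1.01 ± 0.103 (SD, n = 3). This ratio was chosen after the values were seen, so it was given no test. The paper reports comparable growth of MC-F7 and MT-F7 cells in its growth assay. Whether these RNA levels went with any change in cell cycling was not tested.

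The partner genes of the same step were read from a list of 29 genes that held CDK2, the INK4 inhibitors, the retinoblastoma family, the E2F and DP factors, CDC25A, ubiquitin ligase subunits that act on cyclins or p27, and the CDK-activating kinase. Of these, 28 were in the count table and 27 were tested, and CDKN2B was too low, where the MC-F7 libraries had 0, 4 and 0 counts against 2, 2 and 1 for MT-F7. RB1 rose, TFDP2 and CDC25A fell, and the other 24 did not pass, so that 11.1% of the tested partners passed against 23.2% of all tested genes. The median log2 fold change of the tested partners was 0.067. With the replicate block 9 partners passed, where 36.0% of all tested genes passed. Without MC-F7 replicate 1 only 1 did, and without MC-F7 replicate 3 there were 5. In those fits 2674 and 3093 genes passed in all, against 3016 with all libraries.

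RB1, which holds E2F factors inactive until it is phosphorylated, had 6.77, 6.47 and 5.66 CPM in MC-F7 and 14.1, 14.8 and 14.6 CPM in MT-F7. The groups were far apart relative to their spread, and RB1 passed in all 6 fits that left out 1 library. Its log2 fold change was 1.20 ± 0.177 (SE, edgeR adjusted p = 3.7e-04). LPAR6, a receptor gene taken to overlap RB1, was 1.74-fold higher in MT-F7 (edgeR adjusted p = 0.00231), and without stated strand in the counting the reads of the pair may not be separated. Overlaps were searched in the RefSeq annotation for the 10 G1 genes only, not for the partners. CDC25A, the phosphatase that activates CDK2, fell by 0.50 on the log2 scale, from 80.2 ± 10.1 to 56.9 ± 1.76 CPM (SD, n = 3, edgeR adjusted p = 0.0297). TFDP2, a dimer partner of E2F factors, fell by 0.51, from 41.9 ± 4.03 to 29.5 ± 4.09 CPM (SD, n = 3, edgeR adjusted p = 0.0387). Of the 6 fits that left out 1 library, CDC25A passed in the 2 without replicate 3 of either group and TFDP2 in the 1 without MC-F7 replicate 3.

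Several direct partners of the 10 genes did not pass the test, and they were picked for their roles after the values were seen. CDK2, the kinase of the E cyclins, had means of 44.8 ± 1.97 CPM in MC-F7 and 57.6 ± 1.39 CPM in MT-F7 (SD, n = 3, edgeR adjusted p = 0.0801) and did not overlap between the groups. CDKN2A, whose products include the INK4 inhibitor p16, had 3.85, 5.14 and 2.10 CPM in MC-F7 and 5.02, 11.2 and 6.11 CPM in MT-F7. The groups overlapped (edgeR adjusted p = 0.0556), and counts per gene do not separate its products. SKP2, the ligase subunit that recognises p27, had log2 fold change -0.02 (edgeR adjusted p = 0.961), and E2F1 had log2 fold change 0.17 (edgeR adjusted p = 0.527).

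Of 14 cyclins, CDK1 and CDK1 regulators of S, G2 and M phases, all were tested and none passed edgeR's quasi-likelihood test. Over all tested genes 23.2% passed. At an unadjusted p under 0.05 there were 5 (CCNB1, CDK1, CDC25B, PLK1 and CKS2), which was 35.7% of the list against 35.8% of all tested genes. DESeq2 called 3 of the list and 3390 genes in all. The log2 fold changes of the 14 lay between -0.61 and 0.65, with a median of -0.23. The count that passed edgeR's test also moved with the libraries, to 4 without MC-F7 replicate 3 and to 1 without MT-F7 replicate 3. In those fits 3093 and 3087 genes passed in all, against 3016 with all libraries. With the replicate block the count was 5, where 36.0% of all tested genes passed.

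Because CDKN1A is a p53 target, 20 other known p53 targets were read from the same fit. Of these, 19 were in the count table, 16 were tested and 6 passed, 5 higher and 1 lower, or 37.5% against 23.2% of all tested genes. PLK2, a polo-like kinase, rose from 13.5 ± 3.36 to 35.7 ± 4.50 CPM (log2 fold change 1.40, edgeR adjusted p = 2.6e-04), and TP53INP1, a stress-induced regulator of autophagy and cell death, from 31.9 ± 2.51 to 62.1 ± 8.59 CPM (SD, n = 3, log2 fold change 0.96, edgeR adjusted p = 8.6e-04). Both passed whichever library was left out. BBC3 and BAX, which promote apoptosis, had log2 fold changes of 0.73 and 0.52, and the sestrin gene SESN2 had 0.51 (edgeR adjusted p = 0.0243, 0.0298 and 0.0435). SESN1, another sestrin, fell by 0.62 on the log2 scale (edgeR adjusted p = 0.0451). Of the 6 fits that left out 1 library, BBC3 passed in those without MC-F7 replicate 2 and without MT-F7 replicate 3, BAX in those without replicate 1 of either group, SESN2 in that without MT-F7 replicate 3, and SESN1 in that without MC-F7 replicate 3. MDM2, the ubiquitin ligase that degrades p53, did not pass, with a log2 fold change of 0.49 (edgeR adjusted p = 0.0633, chosen for its role after its value was seen). The count was 3 without MC-F7 replicate 1, 2 or 3 or without MT-F7 replicate 1, and 2 without MT-F7 replicate 2. The genes called in all were 2674, 1914 and 3093 without MC-F7 replicates 1, 2 and 3. They were 2155 without MT-F7 replicate 1 and 2235 without MT-F7 replicate 2, against 3016 with all libraries.

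CDKN1C lies in an imprinted domain, and 10 symbols of other genes in or near it were listed, with CARS and CARS1 as 2 symbols of 1 gene. In the RefSeq gene order CDKN1C is next to SLC22A18 and KCNQ1. Of the 9 listed genes in the count table, 7 were tested and 3 passed, all lower in MT-F7, or 42.9% against 23.2% of all tested genes (11.3% lower). CARS1, a transfer RNA synthetase gene, fell from 232 ± 18.8 to 128 ± 10.01 CPM (SD, n = 3, log2 fold change -0.86, edgeR adjusted p = 0.00113). ASCL2, a transcription factor of the trophoblast, fell from 1.53 ± 0.524 to 0.276 ± 0.174 CPM (SD, n = 3, log2 fold change -2.43, edgeR adjusted p = 0.00602), and both passed whichever library was left out. ASCL2 was low, at 22, 39 and 43 counts in the MC-F7 libraries against 8, 11 and 2 in those of MT-F7. Its count in MT-F7 replicate 3 was under the floor of 3 counts.

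SLC22A18, the transporter gene beside CDKN1C, was low, at 42, 23 and 13 counts in the MC-F7 libraries against 9, 1 and 10 in those of MT-F7. It fell by 2.06 on the log2 scale (edgeR adjusted p = 0.0388), and of the 6 fits without 1 library the 2 without replicate 3 of either group called it. KCNQ1 and TRPM5 were too low to test. The median log2 fold change of the 7 tested genes was -0.86, and 1 of them had a log2 fold change above 0, whereas that of CDKN1C was 1.11. With at least 10 counts required in every library, 1 domain gene passed, and 2712 genes in all.

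**Figure D5:**
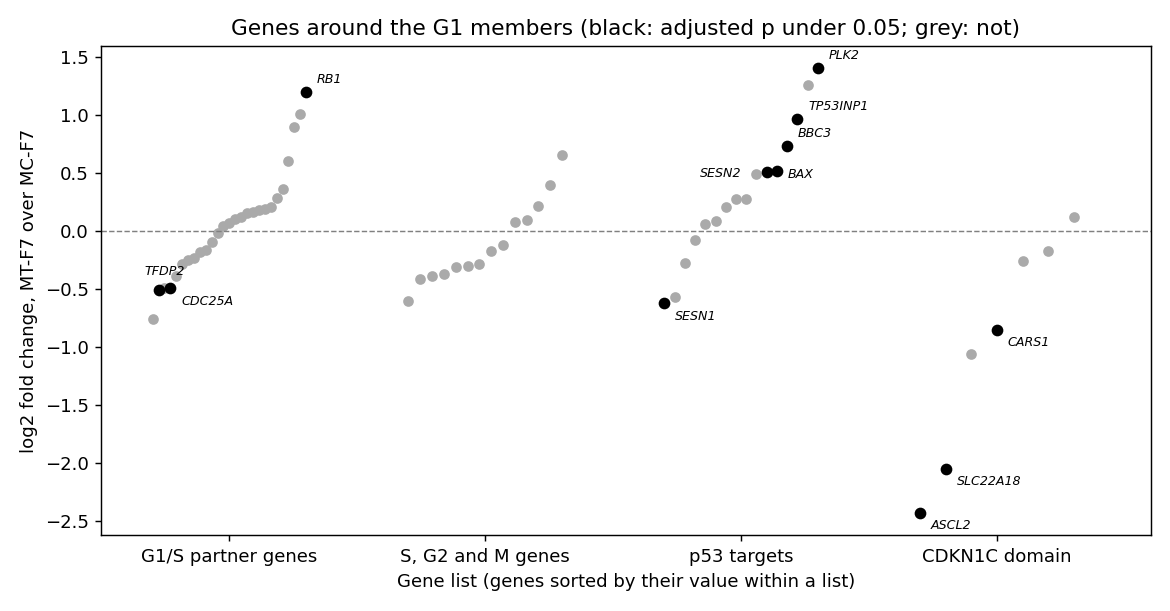
Log2 fold change, MT-F7 over MC-F7, of every tested gene in the lists of G1/S partners, genes of S, G2 and M phases, p53 targets and genes of the CDKN1C domain, sorted within each list. Black points with names passed at an adjusted p under 0.05, and RB1 at 1.20, PLK2 at 1.40 and ASCL2 at -2.43 lie farthest from 0 among them in their lists.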

How the data were processed

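Clean reads had been aligned with HISAT2 2.0.5 to a Bos taurus genome from Ensembl and assigned to genes with featureCounts 1.5.0-p3, and the genome build and strand setting are not given in the sources used here. The authors deposited the resulting raw counts by Entrez identifier. The authors also deposited a table they call TPM. Its values behaved as counts over gene length times 1 factor shared by all libraries, so library size remained in them. They summed to 154763 to 164394 per library and are not standard TPM, which have the same total in every library.

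Symbols were taken from the RefSeq table of assembly ARS-UCD2.0, which matched 19074 of 19163 genes. Genes were filtered with filterByExpr (minimum count 10, minimum total count 15), normalised by TMM and compared by the two-sided quasi-likelihood test in edgeR 4.0.16 under R 4.3.3, with Benjamini-Hochberg adjustment over 13001 genes and a threshold of 0.05. The CPM values are counts scaled to TMM-adjusted library sizes. Shares were computed with scipy 1.17.1. Total counts of 21958386 to 24933430 set the precision, and the floor of 3 counts covers counting error only. Alternatives were other normalisations and filters, DESeq2 1.42.0, limma 3.58.1 on log2(TPM + 1) and log2(TPM + 0.1), a replicate block, and leaving out libraries or mitochondrial genes. The scripts were tested on simulated data.

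All 10 genes were named, and of the other lists every gene that passed, up to 8 per list. Markers, genes that overlap a listed gene, and genes that did not pass were named for their role or position after their values were seen. The genes and lists were chosen with earlier results of these data known.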

Additional observations from a re-analysis of the deposited data

How the results depend on the processing

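The same replicate numbers occur in both groups, but they were not shown to pair the libraries. The deviations of same-numbered libraries from their group means correlated at r = 0.134, 0.0445 and 0.417 for replicates 1, 2 and 3, and not every library correlated best with its own number. With the replicate block 4674 genes passed in place of 3016, along with 7 of the 10 G1 genes, 9 partners and 5 genes of S, G2 and M phases, and CCND2 was the G1 gene gained.

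Of 160 alternative values for the 10 G1 genes, 149 kept their direction and side of the threshold, 8 no longer passed, 1 newly passed and 2 turned sign (CCNE1 at -0.045 without MC-F7 replicate 1 and -0.072 without MT-F7 replicate 1, with 0.12 the highest value without 1 library). For 190 values of the partners, p53 targets and domain genes that had passed, 146 kept both and 44 no longer passed. These genes were taken because they passed, so none could newly pass. Leaving out each library in turn gave 1914 to 3093 genes in all (1914 without MC-F7 replicate 2), 3 to 6 G1 genes, 1 to 5 partners, 0 to 4 genes of S, G2 and M phases, 2 to 5 p53 targets and 2 to 4 domain genes. Over these fits the difference in share ran from -0.784 to 3.36 percentage points for CDKN1A (with -0.038 and -0.0090 without MT-F7 replicate 1 and 3) and from -0.357 to 3.33 for CDKN1C. DESeq2 gave 5 partners and 3 genes of S, G2 and M phases, and the filter of at least 1 count gave 5 and 1. Limma on TPM gave 1 gene of S, G2 and M phases with either pseudocount. In all, DESeq2 called 3390 genes, that filter 3112, and limma 2362 (pseudocount 1) or 2421 (pseudocount 0.1). With at least 10 counts in every library 1 domain gene passed.

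Leaving out both replicates numbered 3, chosen after seeing the data, gave 4242 genes in all, 6 G1 genes, 6 partners, 6 genes of S, G2 and M phases and 5 domain genes. Limma on TPM, without library scaling, moved the median of all genes by 0.106 and 0.126 on the log2 scale and changed the split of higher and lower calls from 1553 and 1463 to 1545 and 817 (pseudocount 1) or 1579 and 842 (pseudocount 0.1). The causes of these changes were not tested. Among the G1 genes CCND1 rested on 68 to 100 counts per library.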

Other observations

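The table held 30 other genes whose symbols follow the pattern of cyclins or cyclin-dependent kinases, a group formed after the data were seen. Of these, 28 were tested and 5 passed edgeR's quasi-likelihood test with Benjamini-Hochberg adjustment, all of them higher in MT-F7 (17.9%, where 23.2% of all tested genes passed), with a median log2 fold change of 0.016 over the 28. The 28 include CCNDBP1, a cyclin-binding protein and not a cyclin, which did not pass (edgeR adjusted p = 0.543). CDK3, a kinase linked to the exit from quiescence, rose 3.87-fold, from 4.26 ± 1.30 to 16.5 ± 5.004 CPM (SD, n = 3, edgeR adjusted p = 2.3e-04). CCNG2, an unusual cyclin that is high in cells leaving the cycle, rose from 2.54 ± 0.420 to 7.40 ± 1.96 CPM (SD, n = 3, edgeR adjusted p = 0.00106). CDK14, a kinase of the membrane that acts on Wnt receptors, rose from 8.86 to 22.6 CPM on average (edgeR adjusted p = 3.3e-04). CCNYL1, a relative of the cyclin that CDK14 binds, rose from 6.76 to 12.8 CPM (edgeR adjusted p = 0.00361), and CDK5, best known from neurons, from 46.7 to 67.6 CPM (edgeR adjusted p = 0.0287). These values were not used in any comparison of the G1 genes.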
